A study of Homo sapiens with 8 samples.

Results

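Inflammatory chemokine mRNAs were read in NB4, a line derived from human acute promyelocytic leukaemia, after lentiviral hairpins against CDK2, the cyclin-dependent kinase of the G1-to-S transition. The set held 8 genes: CCL2, CCL3, CCL4 and CCL5 of the CC family, and CXCL1, CXCL2, CXCL8 and CXCL10 of the CXC family. Each was read from the probe set that the array annotation assigned to exactly 1 gene and that had the highest mean over the 8 arrays. Of these 8 genes, 7 had such a probe set, out of 18132 genes with one on the array, and CCL4 had none. Of those 7, 6 passed the filter on low values (a mean above 5.83 log2) together with 12839 other genes, and CXCL10 did not. The 6 lay above that filter in both scramble arrays too.

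The 4 groups were NB4 cells transduced with a scrambled control for 2 days or for 5 days, with 1 array each, and NB4 cells transduced with shCDK2 for 2 days or for 5 days, with 3 arrays each. The 3 shCDK2 arrays of a day carried 3 different hairpins, numbered #1, #3 and #10, so each construct had 1 array per day. All arrays received lentivirus at a multiplicity of infection of 10, and all cells came from the same line. Values are deposited log2 signals, on which a difference of 1 is a doubling. The labels do not say that the arrays came from separate cultures, and the p-values therefore measure only the spread between these samples. As whole cultures were read, fewer or more cells that express a gene and less or more RNA per cell cannot be told apart.

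The CDK2 signal, read first as a check of the labels, was 39.9%, 95.0% and 34.0% of the same-day scramble at day 2 for hairpins #1, #3 and #10. Their day 5 values were 81.1%, 72.3% and 92.9%. CDK2 was thus near the same-day scramble level in the array labelled #3 at day 2 and in the array labelled #10 at day 5, at 80.5% and 97.5% on a further CDK2 probe set. The array labelled scramble at day 5 (8.19 log2) itself stood below the scramble array of day 2 (9.10 log2), as did the array labelled #10 at day 5 (8.08 log2). Every difference given for hairpin #10 at day 5 or over both days therefore rests on the label of that array. For the chemokines, these 2 scramble arrays differed by 1.04 log2 for CCL2 and by at most 0.50 either way for the other 6 genes. Over all probe sets the array medians ran from 6.30 to 6.43 log2.

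Chemokines are small secreted proteins that bind G protein-coupled receptors and steer the movement of leukocytes. CC chemokines such as CCL2, CCL3, CCL4 and CCL5 mainly attract monocytes, macrophages and T cells, while CXC chemokines with an ELR motif (CXCL1, CXCL2, CXCL8) attract neutrophils, and CXCL10 attracts activated T cells. Their genes lie in clusters, are transcribed on inflammatory signals through NF-kB, AP-1 and, for CXCL10, interferon factors, and give short-lived mRNAs. Myeloid cells are a known source of them and can make more of them as they mature.

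The promoters are shown because the CXC genes differed in how far their signals moved while sharing a kB sequence. RefSeq promoters of build GRCh38.p14 were listed for 5 of the 8 genes, and those for CCL2, CCL4 and CCL5 are not printed here. Each stretch holds the 250 bases before the start of transcription, and capitals mark matches on either strand to GGAANTTCC (kB), TGANTCA (AP-1) and the interferon-stimulated response element (ISRE, TTTC on either side of any 2 bases). These 3 were kept from 8 patterns after these promoters had been looked at.
CXCL8 promoter, chr4:73740319-73740568, plus strand: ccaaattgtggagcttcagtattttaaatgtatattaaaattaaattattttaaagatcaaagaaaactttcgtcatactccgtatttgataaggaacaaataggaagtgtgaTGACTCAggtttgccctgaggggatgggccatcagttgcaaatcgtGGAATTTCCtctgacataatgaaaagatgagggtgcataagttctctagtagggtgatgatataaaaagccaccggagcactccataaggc
CXCL1 promoter, chr4:73869143-73869392, plus strand: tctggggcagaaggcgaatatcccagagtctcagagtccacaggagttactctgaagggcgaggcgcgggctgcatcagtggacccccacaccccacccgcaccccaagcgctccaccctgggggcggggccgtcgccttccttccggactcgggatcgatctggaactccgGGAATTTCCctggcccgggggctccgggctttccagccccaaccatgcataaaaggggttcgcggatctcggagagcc
CXCL2 promoter, chr4:74099196-74099445, minus strand: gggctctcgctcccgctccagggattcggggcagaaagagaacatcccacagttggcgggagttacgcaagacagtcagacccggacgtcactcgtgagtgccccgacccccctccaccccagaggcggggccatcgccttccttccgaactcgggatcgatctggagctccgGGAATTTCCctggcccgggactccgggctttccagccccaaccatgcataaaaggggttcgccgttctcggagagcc
CXCL10 promoter, chr4:76023498-76023747, minus strand: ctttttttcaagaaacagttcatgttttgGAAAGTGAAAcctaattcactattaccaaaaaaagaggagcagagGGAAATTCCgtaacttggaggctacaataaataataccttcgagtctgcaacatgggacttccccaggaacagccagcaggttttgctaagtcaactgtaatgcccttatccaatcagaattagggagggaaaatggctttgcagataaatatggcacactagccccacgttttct
The kB letters began 91 bases before the start in CXCL8, 78 in CXCL1, 77 in CXCL2 and 176 in CXCL10. They occurred in 0.826% of 35116 listed promoters of the same length. The AP-1 letters began 137 bases before the start of CXCL8 and occurred in 6.57% of promoters. The ISRE letters began 221 bases before the start of CXCL10 and occurred in 3.02%. The CXCL1 and CXCL2 promoters shared an unbroken run of 42 bases that began 57 bases before the start in both. CCL3, whose promoter was also listed, held none of these 3 patterns in its 250 bases. A match describes letters in these windows and no binding was measured.

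The genes differed in whether the scramble arrays carried a signal at all. A background level was set on each array as the 90th percentile of 18 genes restricted to other tissues, and it lay between 6.34 and 6.98 log2. CCL2, CCL5 and CXCL8 were far above it in both scramble arrays, with levels of 10.25 to 11.83 log2. CCL3 was above it by less than 1 log2, at 7.50 and 7.49. CXCL2 (6.37 and 6.61) and CXCL10 (3.67 and 3.58) were at or below background in both scramble arrays. CXCL1 was just above it, at 6.87 and 7.38. The 3 probe sets shared by CCL4 and its copies were above it in scramble at day 2 (6.60 to 7.03), while 2 of them (6.87 and 6.91) were below it in the array labelled scramble at day 5.

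CCL2, the main monocyte attractant, was read by probe set 11716384_at, and its gene lies on chr17:34255285-34257203 (GRCh38.p14). Its level at day 2 was 10.25 log2 in scramble, 10.91 with #1, 7.94 in the array labelled #3 and 10.94 with #10. At day 5 it was 11.29 in the array labelled scramble, 12.09 with #1, 12.42 with #3 and 14.05 in the array labelled #10. All 3 hairpin arrays lay above scramble at day 5, and the single low array was the one labelled #3 at day 2, where CDK2 was near its scramble level. CCL2 was the only one of the 6 tested genes whose 3 hairpin arrays at day 5 all exceeded all 3 at day 2, a pattern found in 2.79% of tested genes. Within the hairpins its difference between the days was 2.92 log2 ± 0.88 (SE, n = 3 arrays per day), with a limma adjusted p of 1.00. Without the array labelled #3 at day 2 that difference was 1.93 log2. The array labelled scramble at day 5 was itself 1.04 log2 above scramble at day 2.

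CCL3, a ligand of CCR1 made by macrophages, was read by probe set 11720994_x_at, and its gene lies on chr17:36088256-36090143. At day 2 CCL3 read 7.50 log2 in scramble, 7.28 with #1, 7.77 in the array labelled #3 and 10.71 with #10. Day 5 levels were 7.49 in the array labelled scramble, 8.42 with #1, 12.33 with #3 and 13.58 in the array labelled #10. The arrays of #10 at both days and of #3 at day 5 stood apart, and the other 5 arrays lay within 1.15 log2 of each other. At day 5 the excess over scramble was 0.93 for #1, 4.84 for #3 and 6.09 for #10. The mean of the 3 hairpins at day 5 was 11.45 log2 ± 2.69 (SD, n = 3) against 7.49 in the array labelled scramble.

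CCL4, a close relative of CCL3 that attracts monocytes and T cells, could not be read by a probe set of its own. Its 3 probe sets are annotated jointly to CCL4, CCL4L2 and CCL4L1, near-identical copies, so their signal cannot be split between these genes. One of them read 7.03 log2 in scramble, 5.79 with #1, 5.26 in the array labelled #3 and 10.46 with #10 at day 2. At day 5 it read 6.87 in the array labelled scramble, 9.29 with #1, 12.40 with #3 and 12.55 in the array labelled #10. As for CCL3, the arrays of #10 at both days and of #3 at day 5 were the highest, and on all 3 probe sets #1 and the array labelled #3 lay below scramble at day 2. The 3 probe sets exceeded scramble at day 5 by 1.19 to 2.42 log2 with #1, by 4.84 to 5.53 with #3 and by 5.44 to 5.68 with #10. For the 2 probe sets below background in the array labelled scramble, these are differences from a background signal. None of the 3 entered a test.

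CCL5, an attractant of T cells, monocytes and eosinophils, was read by probe set 11753810_a_at, and its gene lies on chr17:35871491-35880360. Day 2 levels were 11.27 log2 in scramble, 9.97 with #1, 12.54 in the array labelled #3 and 12.01 with #10. By day 5 the levels were 11.62 in the array labelled scramble, 11.60 with #1, 13.25 with #3 and 13.42 in the array labelled #10. Both arrays of #3 and both of #10 lay above both scramble arrays, as they did for 2 (15.8% of genes) and 4 (21.2%) of the 6 chemokines, while #1 was below scramble at day 2 and level with it at day 5. CCL5 was thus high in the array labelled #3 at day 2, where CCL2 was at its lowest.

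CXCL8, the principal human neutrophil attractant acting on CXCR1 and CXCR2, was read by probe set 11718841_s_at, and its gene lies on chr4:73740569-73743716. At day 2 CXCL8 read 11.83 log2 in scramble, 11.26 with #1, 11.42 in the array labelled #3 and 12.51 with #10. Day 5 levels were 11.37 in the array labelled scramble, 12.09 with #1, 13.35 with #3 and 14.15 in the array labelled #10. Every hairpin array exceeded scramble at day 5, and only #10 did so at day 2. The hairpin mean at day 5 was 13.20 log2 ± 1.04 (SD, n = 3) and exceeded scramble by 1.83 ± 0.78 (SE), with an unadjusted limma p of 0.0509 and an adjusted p of 0.913.

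CXCL1, a ligand of CXCR2, was read by probe set 11754114_a_at, and its gene lies on chr4:73869393-73871308. Its level at day 2 was 6.87 log2 in scramble, 7.24 with #1, 7.04 in the array labelled #3 and 6.91 with #10. At day 5 it was 7.38 in the array labelled scramble, 7.28 with #1, 6.16 with #3 and 7.31 in the array labelled #10. All arrays but #3 at day 5 lay within 0.50 log2 of each other, so the signal that most other chemokines showed in the array labelled #10 at day 5 was not seen for CXCL1. In #3 at day 5 it lay below the background level of that array (6.34), which was itself lower than in the array labelled scramble (6.98). Its other probe set was near background on all 8 arrays, between 3.81 and 4.22 log2.

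CXCL2, also a ligand of CXCR2, was read by probe set 11744127_at, and its gene lies on chr4:74097040-74099195. Its level at day 2 was 6.37 log2 in scramble, 6.27 with #1, 6.29 in the array labelled #3 and 6.66 with #10. At day 5 it was 6.61 in the array labelled scramble, 6.41 with #1, 7.61 with #3 and 11.28 in the array labelled #10. On this probe set it was near background on 5 arrays and stood clearly apart in 1, the array labelled #10 at day 5, at 4.67 log2 above scramble. On its other probe set #3 at day 5 stood apart too, at 4.11 log2 above a scramble array at background. Its neighbour CXCL1, with the same kB letters at almost the same distance from its start, was 0.07 log2 below scramble in the array labelled #10 at day 5. CXCL1 itself read just above background in both scramble arrays, so the 2 genes are compared near the background level.

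CXCL10, an interferon-induced attractant of T cells through CXCR3, was read by probe set 11720298_at, and its gene lies on chr4:76021118-76023497. Day 2 levels were 3.67 log2 in scramble, 3.71 with #1, 3.86 in the array labelled #3 and 3.58 with #10. By day 5 the levels were 3.58 in the array labelled scramble, 3.79 with #1, 6.53 with #3 and 8.72 in the array labelled #10. It was near background on 6 arrays and above it in #3 and the array labelled #10 at day 5, by 2.95 and 5.14 log2 over scramble. As both scramble arrays were at background, these are differences from a background signal. CXCL10 lay under the filter on low values, and its tests come from a fit over 18132 genes with no filter, chosen after its values were seen.

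**Figure D1:**
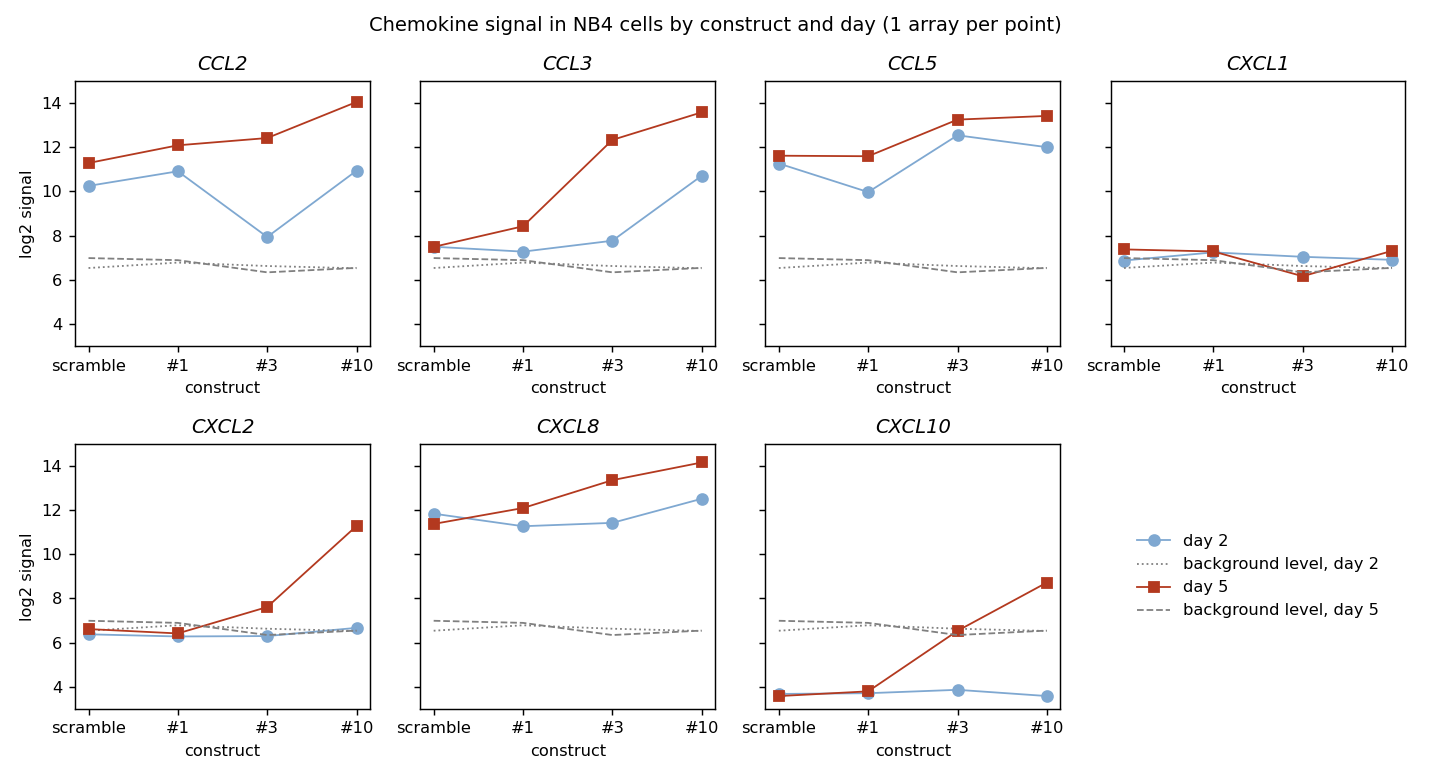
Log2 signal of 7 chemokine genes (y axis) by construct (x axis) at day 2 (blue circles) and day 5 (red squares), 1 array per point, with lines joining the arrays of a day and grey lines at each array's background level. CCL2, CCL3, CCL5, CXCL2, CXCL8 and CXCL10 were highest in the array labelled #10 at day 5, CXCL1 stayed near the grey lines, and CXCL2 and CXCL10 met or lay under them in scramble.

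Large differences from scramble were counted first, each beside the share of all tested genes that had one. At least 1 log2 above scramble at day 5 were 0 of the 6 tested genes with #1 (0.319% of all 12845 genes), 4 with #3 (6.20%) and 5 with #10 (5.57%). At day 2 the counts were 0 with #1 (0.304%), 1 in the array labelled #3 (1.00%) and 1 with #10 (6.80%). At least 1 log2 below scramble were CCL5 with #1 at day 2 (0.514% of genes), CCL2 in the array labelled #3 at day 2 (0.919%) and CXCL1 with #3 at day 5 (0.343%). CXCL1 was at background in #3 at day 5, where the background level itself was lower than in scramble. None was that far below with #1 at day 5 (0.568%) or with #10 at day 2 (4.02%) or day 5 (0.537%). All 3 hairpins lay above scramble at day 5 for CCL2, CCL3 and CXCL8, or 3 of 6 genes (16.0% of all genes), and at day 2 for CXCL1 alone (25.6%). All 3 lay below scramble at day 5 for CXCL1 (30.0%) and at day 2 for none of the 6 (26.5%). Each hairpin was higher at day 5 than at day 2 for 5 of 6 genes (11.1%), and the array labelled #10 at day 5 was the highest of the 8 arrays for 5 of 6 (9.88%). In scramble, 4 of 6 were higher at day 5 than at day 2 (56.0%).

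None of the 6 tested chemokines passed an adjusted p of 0.05 in the comparison of shCDK2 with scramble at day 2, nor did any gene (0.0% of 12845 in limma, with 442 or 3.44% at an unadjusted p under 0.05, none of them these chemokines). The median of the 6 differences was 0.11 log2, against 0.02 over all genes. At day 5 again no chemokine and no gene was called (0.0%, with 171 genes or 1.33% and no chemokine at an unadjusted p under 0.05). There the median of the 6 was 1.69 log2, against -0.09 over all genes. The estimates at day 5 were 1.57 ± 1.25 (SE) for CCL2, 3.96 ± 2.01 for CCL3 and 1.14 ± 1.05 for CCL5. For the CXC genes they were -0.46 ± 0.45 for CXCL1 and 1.82 ± 1.57 for CXCL2, all with an adjusted p of 0.913 in limma. CXCL10 gave 2.77 ± 1.52 with an adjusted p of 0.878.

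The change from day 2 to day 5 within the hairpins called no chemokine and no gene (0.0% of genes in limma, 260 at an unadjusted p under 0.05). CCL2 and CXCL8 were 2 of the 6 chemokines among those 260 (2.02% of genes), at differences of 2.92 and 1.47 log2. The test of whether the hairpin difference itself differed between the days also called no gene (0.0%, with 164 genes or 1.28% and no chemokine at an unadjusted p under 0.05). Its estimates were 1.89 log2 for CCL2, 2.87 for CCL3, 0.90 for CCL5, -0.65 for CXCL1, 1.78 for CXCL2 and 1.93 for CXCL8. All had an adjusted p of 1.00, and the smallest standard error among them, 0.64, belonged to CXCL1.

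Both days of each hairpin were next compared with both scramble arrays. Here the 2 days stood as the repeats of a construct, with 1 difference from scramble assumed for both. Some differences were unlike between the days. CXCL2 with #10 lay 0.29 log2 above scramble at day 2 and 4.67 at day 5, and CCL2 with #3 gave -2.31 and 1.13. Such estimates average the days, and their errors and p-values do not come from repeats at the same time. Hairpin #1 called no gene (0.0% in limma, with 171 genes or 1.33% and no chemokine at an unadjusted p under 0.05), and the chemokine differences ran from -0.66 log2 for CCL5 to 0.73 for CCL2, with a median of 0.11 against -0.02 over all genes. Hairpin #3 called 4 genes (0.0311%) and no chemokine, with 2 of the 6 at an unadjusted p under 0.05, as were 9.47% of all genes. CCL5 was 1.46 log2 ± 0.31 (SE) above scramble with #3, and CCL3 2.56 ± 0.91, at limma adjusted p of 0.238 and 0.447. The median of the 6 was 0.62, against -0.07 over all genes. Without the array labelled #3 at day 2, the CCL2 estimate of hairpin #3 turned from -0.59 to 0.76 log2, and its CCL3 estimate became 4.17 (adjusted p 0.0738).

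Hairpin #10 called 258 genes (2.01%) and again none of the 6 chemokines, although 4 of the 6 had an unadjusted p under 0.05, as did 20.2% of all genes. The median of the 6 differences was 1.73 log2, against -0.09 over all genes. CCL3 came closest, at 4.65 log2 ± 0.91 (SE), with a 95% interval of 2.54 to 6.77 and an adjusted p of 0.0510. CCL5 was 1.27 ± 0.31 above scramble (adjusted p 0.0831), CXCL8 1.73 ± 0.51 (0.118), CXCL2 2.48 ± 0.95 (0.201) and CCL2 1.73 ± 0.76 (0.256). CXCL1 gave -0.02 ± 0.33 (adjusted p 0.983), with an interval of -0.78 to 0.75. CXCL10 gave 2.52 ± 1.10 (adjusted p 0.305) and with #3 1.57 ± 1.10 (0.710), where the fit with no filter called 1.48% and 0.0276% of genes. CCL3 crossed the threshold in limma after quantile normalization (adjusted p 0.0470) and without either array of #1 (0.0178), without either of #3 (0.0205) or without #10 at day 2 (0.0457). It did not without scramble at day 2 (6.09 log2, 0.172) or without the array labelled scramble at day 5 (3.22, 0.237). Without #10 at day 2, which leaves a single array of that hairpin assumed to vary like the others, CXCL2 gave 4.51 log2 (limma adjusted p 0.00120) and CXCL10 4.65 (0.0103). Without the array labelled #10 at day 5, which likewise leaves 1 array, CXCL2 dropped to 0.46 (0.672) and CXCL10 to 0.40 (0.921), while CCL3 was 4.17 (0.0800).

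Hairpins #10 and #1 were also compared with each other, a contrast that takes no level from the scramble arrays. Hairpin #10 against #1 called 42 genes (0.327%) and none of the 6 chemokines, with 4 of the 6 at an unadjusted p under 0.05, as were 15.8% of all genes. CCL5 was 1.93 log2 ± 0.31 (SE) higher with #10 (adjusted p 0.0631) and CCL3 4.30 ± 0.91 (0.0930). CXCL2 was 2.63 higher (0.242), CXCL8 1.65 (0.184) and CCL2 0.99 (0.541), while CXCL1 gave -0.15 (0.818). CXCL10 gave 2.40 (0.392) in the fit with no filter, which called 0.237% of genes. Without an array of #3, limma's adjusted p was 0.0309 for CCL3 and 0.0383 for CCL5. Without #10 at day 2 it was 0.0349 for CCL5, 0.00124 for CXCL2 and 0.0152 for CXCL10. Without the array labelled #10 at day 5 the difference from #1 was 0.60 log2 for CXCL2 (limma adjusted p 0.545), 0.27 for CXCL10 (0.918), 1.67 for CCL5 (0.114) and 3.81 for CCL3 (0.156). The comparisons of #1, #3 and #10 with scramble share their 2 scramble arrays. In the comparison of #10 with #1, the scramble arrays still enter the spread of the fit, and no gene was called without either of them.

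**Figure D2:**
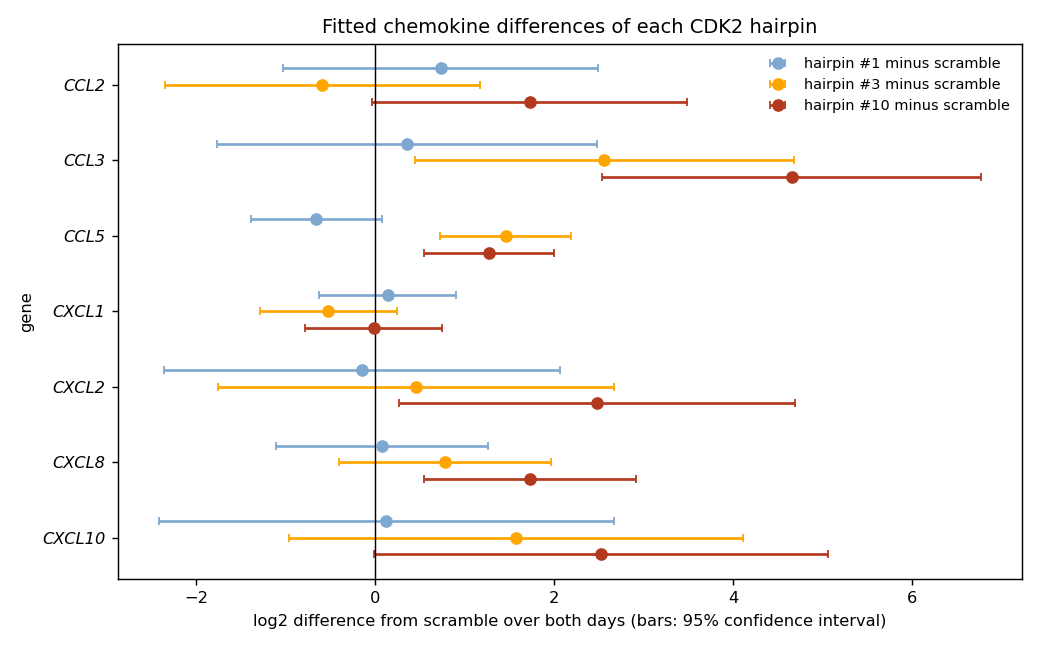
Fitted log2 difference from scramble over both days (x axis) for each chemokine (y axis), with points for hairpins #1, #3 and #10 and bars for the 95% confidence interval of limma. The intervals of #10 lie above 0 for CCL3, CCL5, CXCL2 and CXCL8 and include 0 for CCL2, CXCL1 and CXCL10, and no gene passed the adjusted threshold.

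Where a gene had several probe sets, they differed mainly in the size of the contrast. The 3 probe sets of CXCL8 put #10 above scramble at day 5 by 2.78, 4.31 and 3.67 log2, and those of CCL5 by 1.80, 1.75 and 1.71. The 2 of CXCL2 differed more, at 4.67 and 6.89 log2 for #10 and at 0.998 and 4.11 log2 for #3. On the lower of these, scramble at day 5 read 4.73 log2 and #10 read 11.62, so the highest-mean probe set gave the smaller contrast. The 2 probe sets of CXCL1 both showed no excess in the array labelled #10 at day 5, at -0.07 and -0.25 log2.

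**Figure D3:**
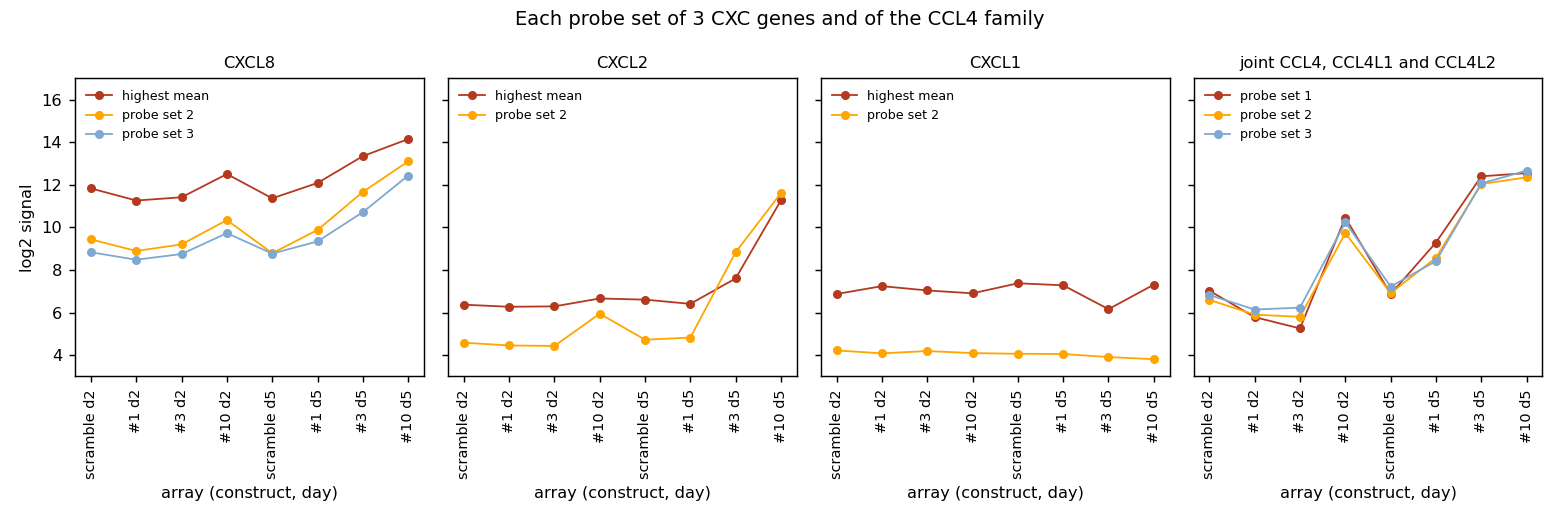
Log2 signal (y axis) on each of the 8 arrays (x axis, construct and day) for every single-gene probe set of CXCL8, CXCL2 and CXCL1 and for the 3 joint CCL4, CCL4L1 and CCL4L2 probe sets, 1 array per point, with lines only joining points of 1 probe set. Probe sets of CXCL8 and of the CCL4 family run together, and those of CXCL2 part at low signal. Those of CXCL1 vary little apart from a lower value of the highest-mean one in #3 at day 5.

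Other chemokine genes were described in the same way. Of 35 listed, 32 were measured and 17 passed the filter. In the 8 limma comparisons, which called 0.0% to 2.01% of all genes, 0 of 17 were called. CCL7 and CCL8 were among the 17, with means of 5.95 and 6.57 log2, though near background on 6 arrays each. They passed the filter through the few arrays where they were high. At least 1 log2 above scramble were 9 of the 32 in the array labelled #10 at day 5, 5 with #3 at day 5, 2 with #10 at day 2, 1 in the array labelled #3 at day 2 and none with #1, and none was that far below. In the array labelled #10 at day 5 they were CCL1, CCL7, CCL8, CCL20, CCL23, CCL24, CXCL3, CXCL5 and PPBP, of which CCL1, CCL8, CCL23, CCL24 and CXCL5 are named after their values were seen. Of all 12845 tested genes, 5.57% were at least 1 log2 above scramble with #10 and 6.20% with #3 at day 5. At day 2 these shares were 6.80% and 1.00%, and with #1 they were 0.304% at day 2 and 0.319% at day 5. Over the hairpin arrays 0.343% to 4.02% were that far below. The 32 also include genes under the filter.

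CCL7, a monocyte attractant encoded next to CCL2, read 4.70 log2 in the array labelled scramble, 4.64 with #1, 6.70 with #3 and 12.42 in the array labelled #10 at day 5. CXCL3, a close relative of CXCL2, read 5.55, 5.69, 8.06 and 11.45 in the same order. PPBP, a platelet-associated CXC chemokine, read 3.56, 3.62, 4.89 and 13.48, and CXCL5 read 3.88, 3.60, 3.89 and 12.03. CCL8 read 4.94, 4.94, 9.22 and 13.19. CCL7, CXCL3, PPBP, CXCL5 and CCL8 were near background in both scramble arrays. CCL20, an attractant of dendritic cells and lymphocytes, had a clear scramble level and read 8.90, 8.98, 12.51 and 13.73, with #10 3.31 log2 above scramble over both days (adjusted p 0.0771). PF4 stayed between 6.39 and 6.94 log2, CXCL16 between 6.01 and 6.91, and CXCL9 and CXCL11 were near background on all 8 arrays.

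**Figure D4:**
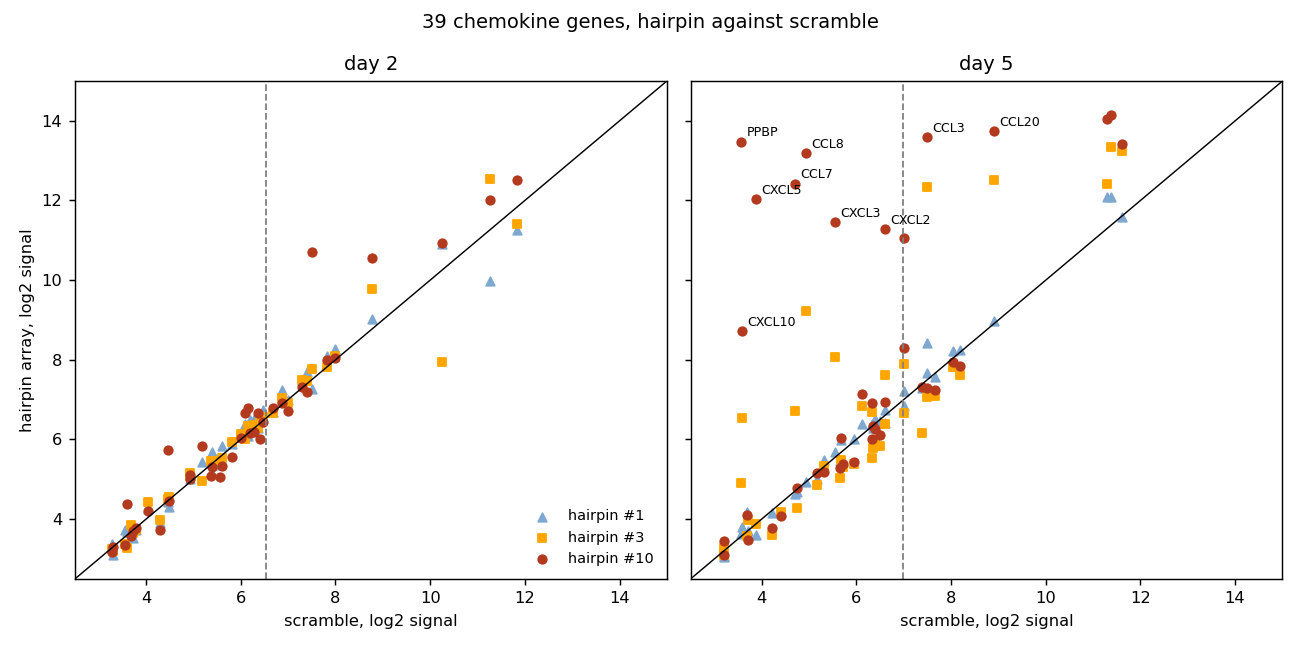
Log2 signal of 39 chemokine genes in each hairpin array (y axis) against the scramble array of the same day (x axis), at day 2 and day 5, with the line of equality and a dashed line at the scramble array's background level. At day 5 a group of genes left of or near the dashed line is far above equality in #10 (circles) and, less far, in #3 (squares), while #1 (triangles) stays near the line.

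Among the chemokine receptors, 23 were listed, 21 measured and 10 tested. The only one called was CCRL2, an atypical receptor that presents chemerin and does not signal like the others. It rose in hairpin #10 by 1.92 log2 ± 0.34 (SE, limma adjusted p 0.0456), where 2.01% of all genes were called. CCR1, the receptor of CCL3 and CCL5, was 1.27 ± 0.25 higher with #10 (adjusted p 0.0529). CXCR4 was 1.05 higher (0.145), CXCR2 gave -0.03 and CXCR3 -0.20. CCR2, the receptor of CCL2, and CXCR1 were near background on all 8 arrays. CCRL2 and CCR1 were near background in both scramble arrays, so their differences from scramble are differences from a background signal.

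Regulators of chemokine transcription were tested as a list of 24 NF-kB and AP-1 genes, 22 of them measured and tested. In hairpin #10, 2 of 22 rose and none fell, where 2.01% of all genes were called. The list median was 0.60 log2 against -0.09 over all genes. In the other comparisons, which called 0.0% to 0.327% of all genes, 0 of 22 were called. JUN, an AP-1 subunit, rose by 3.48 log2 ± 0.38 (SE, adjusted p 0.0154), and TNFAIP3, an NF-kB feedback inhibitor, by 2.27 ± 0.41 (adjusted p 0.0456). NFKBIA, another feedback inhibitor, gave 1.30 (adjusted p 0.116), NFKB1 0.57 (0.431) and RELA 0.12 (0.783). Of 8 regulators of chemokine mRNA decay, 1 was called, ZFP36L1. It rose with #10 by 5.27 log2 ± 0.64 against scramble (limma adjusted p 0.0170) and by 4.48 against #1 (0.0472). These comparisons called 2.01% and 0.327% of all genes. ZFP36 gave 1.21 against scramble (0.354). ZFP36L1 was near background in both scramble arrays and JUN in scramble at day 2, so their differences from scramble rest on background signals there. Without scramble at day 2, and likewise without the array labelled scramble at day 5, limma called 0 genes for #10 (1421 and 1892 at an unadjusted p under 0.05), so none of these calls was made there.

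Of 19 inducing cytokines and their receptors, 14 were tested and none was called in any comparison. The comparisons called 0.0% to 2.01% of all genes. IL1B read 8.12 log2 in the array labelled scramble, 7.79 with #1, 12.94 with #3 and 13.69 in the array labelled #10 at day 5, and was 4.85 ± 1.14 (SE) above scramble with #10 (adjusted p 0.0771). TNF did not share that pattern, at 11.86, 11.96, 12.18 and 12.06 log2 in the same order. Of 10 interferon factors that bear on CXCL10, 7 were tested and none was called, beside the same 0.0% to 2.01% of all genes. Their median was 1.95 log2 for #10, against -0.09 over all genes. Among them IRF1 gave 0.62 with #10 (adjusted p 0.415).

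The genes most like each chemokine over the 8 arrays, by Pearson's r across all tested genes, are given as a description, since the arrays share constructs and days. CCL2 was most like THBS1 (0.97), DCTN6 (0.96) and SKI (0.96). CCL3 was most like TMBIM1 (0.99), IL10RA (0.99) and SGK1 (0.99), and CCL5 like LMBR1L (0.99), USP4 (0.97) and RERE (0.97). CXCL8 was most like CEBPB (0.99), a myeloid transcription factor, NDEL1 (0.99) and SDF4 (0.98). CXCL2 was most like FN1 (0.998), CCL7 (0.995) and CCL1 (0.993), each of which was highest in the array labelled #10 at day 5. CXCL1 was most like BMP10 (0.99), SPATA21 (0.98) and MANEAL (0.98), whose ranges over the 8 arrays were 0.61, 0.79 and 0.78 log2. Like CXCL1, each was lowest in #3 at day 5 (6.35, 6.72 and 6.74 log2), where the background level was lowest too (6.34). Among the chemokines themselves, r was 0.98 between CCL3 and CXCL8 and 0.95 between CXCL2 and CXCL10. CXCL2 was near background on 5 arrays and CXCL10 on 6, so the r of 0.95 rests mainly on the few others. Lower values were 0.34 between CCL2 and CCL5 and 0.08 between CXCL1 and CXCL2.

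Markers of blood cell types were read on the same arrays. The promyelocyte list had a summed signal of 26696 to 32826 on the linear scale over the 8 arrays, although ELANE was near background on all of them. Its genes moved both ways with #10, with 3 above scramble and 4 below over both days, and none was called. With #10 at day 2, CTSG (-1.27 log2), PRTN3 (-1.20) and MPO (-0.98) lay below scramble, and AZU1 (1.22) and ANPEP (1.07) above. At day 5 PRTN3 read 9.76 log2 in the array labelled #10 against 10.76 in the array labelled scramble. The other differences of that array from scramble ran from -0.44 for AZU1 to 0.29 for ANPEP. The monocyte and macrophage list, 9 of 10 genes measured, summed to 1202 and 1282 in scramble, 1287 and 1027 with #1, 1255 and 3390 with #3 and 2980 and 5734 with #10, at day 2 and day 5. CD14 and CD163 were near background on 6 arrays and reached 8.43 and 7.92 log2 with #3 and 10.65 and 10.27 in the array labelled #10 at day 5, while MRC1, MSR1 and VCAN were near background on all 8. CD68 was the only gene of that list called with #10, at 1.29 log2 (limma adjusted p 0.0488), where 2.01% of all genes were called. All 6 tested genes had differences above 0, and CD14 (3.03, adjusted p 0.180), CD163 (2.77, 0.256) and FCGR1A (1.48, 0.0882) had larger ones that were not called. The granulocyte list summed to 1728 and 3553 in scramble, 3035 and 5434 with #1, 2493 and 16361 with #3 and 10263 and 16248 with #10. On the granulocyte list CAMP rose with #10 by 1.07 log2 and MMP9 by 2.61, and 7 of its 10 genes were near background in both scramble arrays, LTF, LCN2, CEACAM8 and FCGR3B on all 8. On the eosinophil, basophil and mast cell list, summing to 8048 and 6936 in scramble, 8052 and 6856 with #1, 14489 and 21700 with #3 and 18010 and 21227 with #10, HDC rose by 1.56 and PRG2 by 1.31, with CLC and CPA3 near background on all arrays. On the lymphoid list, at 1416 and 1896 in scramble, 1861 and 1721 with #1, 1801 and 2313 with #3 and 4226 and 3663 with #10, CD3D rose by 2.25, with CD2, CD3E, KLRD1 and MS4A1 near background on all arrays. These marker genes had limma adjusted p of 0.0133 to 0.0495 in the comparison of #10 with scramble, which called 2.01% of all genes. The erythroid and megakaryocyte list ran from 796 to 1131 and the fibroblast and epithelial list from 504 to 610 over the 8 arrays. The part of these markers in the chemokine differences was not tested.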

How the data were processed

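The members and gene lists were chosen with earlier results of these data known. Total RNA of 8 NB4 samples was hybridised to Affymetrix arrays, per the labels. The authors deposited 1 table of values for 49395 probe sets, which their range shows to be on a log2 scale. Partek is named in the submitters' processing notes, with neither its version nor the normalization (not given in the sources used here). Of these probe sets 44994 were annotated to 1 gene, 1832 to several and 2569 to none, and the last 2 kinds entered no test. Each gene was read by its probe set with the highest mean. A gene was tested if that mean exceeded 5.83 log2, the 40th percentile over probe sets. limma 3.58.1 in R 4.3.3 compared the groups by day (design of group and day), and the constructs (design of construct and day), two-sided, with Benjamini-Hochberg adjustment over 12845 genes and a threshold of 0.05. With 8 arrays, their number limits the precision. The fits were tested on simulated data. Named genes were every member, CDK2, a fixed part of each list, list genes past the threshold, and the 3 genes with the highest Pearson r to each tested member. Alternatives were quantile normalization, median centring, no filter, the mean of probe sets, other probe sets, a replicate block and leaving out each array.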

Additional observations from a re-analysis of the deposited data

Results flagged for a closer look

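The 3 probe sets shared by CCL4, CCL4L1 and CCL4L2 belong to no single gene and entered no comparison, yet carried a signal above the scramble array. At day 5 the array labelled #10 exceeded the array labelled scramble by 5.68, 5.44 and 5.44 log2 on probe sets 11718982_s_at, 11718983_x_at and 11746954_s_at. The first 2 of these read below background in the array labelled scramble, so their values are differences from a background signal. CXCL1 was marked because its 3 hairpin arrays all lay above scramble at day 2 and all below it at day 5. The mean hairpin difference from scramble was lower at day 5 than at day 2, by -0.65 log2 as day 5 minus day 2, and limma's test of that difference gave an adjusted p of 1.00.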

How the results depend on the processing

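Values are log2 differences unless called counts. Precision is limited by 1 array per construct and day. The count of genes called for hairpin #10 against scramble was 258 and became 82 after median centring, 80 of them higher (97.6%, against 84.1%). It was 0 to 960 on leaving out 1 array in turn, with 0 without either scramble array and 960 without either array of #3. For #3 against scramble it was 4, became 0 after median centring and 0 with the mean of probe sets, and ran from 0 to 213, the highest without the array labelled #3 at day 2. For #10 against #1 it was 42, became 0 after median centring and 19 with the mean of probe sets, and ran from 0 to 612. Leaving out the array labelled #10 at day 5 took CXCL2 from 2.48 to 0.46 and CXCL10 from 2.52 to 0.40 for #10 against scramble. The other 5 comparisons gave 0 to 0. With a replicate block of construct, in place of unlinked arrays, all 4 comparisons by day called 0 genes. Same-numbered arrays, as deviations from the mean of the 3 hairpin arrays of their day, correlated at 0.72 for #1, -0.23 for #3 and 0.43 for #10. The replicate block gave a consensus correlation of 0.27. With 3 arrays per day these values do not settle whether the hairpin numbers pair the samples. Chemokine estimates near 0 changed sign. These were CXCL1 at day 2 (-0.0982) and for #1 (-0.0753) on its other probe set, CXCL1 for #10 (0.0119) after median centring, and CXCL2 (-0.0014) and CXCL8 (0.0184) at day 2 after quantile normalization. CXCL8 at day 2 also did with the mean of probe sets (0.032) and on its other probe sets (0.0432 and 0.156). Leaving out 1 array in turn changed the sign of these. For #1 against scramble the range was -0.21 to 1.67 for CCL2, -1.08 to 1.79 for CCL3, -1.24 to 1.49 for CXCL10, -0.19 to 0.46 for CXCL1, -1.11 to 0.81 for CXCL2, -0.89 to 1.04 for CXCL8. For #3 against scramble the range was -1.94 to 0.76 for CCL2, -1.12 to 0.0744 for CXCL1, -0.43 to 1.35 for CXCL2, -0.18 to 1.75 for CXCL8. For all hairpins against scramble at day 2 the range was -0.82 to 0.68 for CCL2, -0.28 to 1.01 for CCL5, -0.0308 to 0.11 for CXCL10, -0.0887 to 0.11 for CXCL2, -0.49 to 0.13 for CXCL8. For day 5 against day 2 within the hairpins the range was -0.34 to 0.23 for CXCL1. For #10 against #1 the range was -0.41 to 0.10 for CXCL1. For #10 against scramble the range was -0.34 to 0.31 for CXCL1. The cause was not tested.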
